A study of Mus musculus with 38 samples.

Results

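The genes described here are 9 genes that mark resting CD4 T cells and keep them in circulation: S1pr1, Klf2, Ccr7, Il7r, Foxo1, Foxp1, Tcf7, Lef1 and Satb1. They were taken by symbol from a table of read counts for 24028 genes, matched through their Entrez Gene numbers, and all 9 passed the filter on low counts with reads in each of the 38 libraries. The whole genes lie in GRCm38.p6 as follows, S1pr1 at chr3:115710433-115715055, Klf2 at chr8:72319062-72321654, Ccr7 at chr11:99144199-99155077, Il7r at chr15:9506159-9529941, Foxo1 at chr3:52268337-52350109, Foxp1 at chr6:98925342-99522746, Tcf7 at chr11:52246527-52283383, Lef1 at chr3:131110297-131224357 and Satb1 at chr17:51736187-51833290. Each library was polyA RNA of mouse CD4 T cells enriched as naive cells from the lymph nodes and spleen of 1 animal, either taken directly (naive) or after 24 h of culture. The culture plates carried anti-CD3 (0.5 µg/ml) and anti-CD28 (0.2 µg/ml), and the medium held interleukin-2 (50 U/ml). The 5 genotypes were wildtype (wt); CD28-/-, a knockout of the costimulatory receptor CD28; T1792Δ/Δ, in which CD4cre removes a floxed miR-17~92 cluster; T1792tg/tg, in which CD4cre removes a stop cassette and so switches on a miR-17~92 transgene under the CAG promoter in Rosa26; and rescue, which carries CD28-/- together with CD4cre and that transgene. Every genotype had 4 naive and 4 stimulated libraries, rescue 3 of each. No group carried CD4cre alone, so T1792Δ/Δ, T1792tg/tg and rescue also differ from wt and from CD28-/- in Cre, and no source used here gives ages.

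Naive T cells recirculate between blood and lymphoid organs. The chemokine receptor CCR7 admits them to lymph nodes, and the sphingosine 1-phosphate receptor S1PR1, encoded by S1pr1, lets them leave again. KLF2 is a transcription factor that drives S1pr1, and FOXO1 drives Klf2, Ccr7 and Il7r, whose product binds the survival cytokine interleukin-7. FOXP1 is a factor of T cell quiescence. TCF-1 (gene Tcf7) and LEF-1 are paired HMG-box factors of T cell identity that can bind β-catenin, and SATB1 organises chromatin in T cells. Signals through the T cell receptor and CD28 activate PI3K and AKT, which move FOXO1 out of the nucleus. The miR-17~92 cluster is a polycistron of microRNAs, short RNAs that bind messenger RNAs mainly through their seed, bases 2 to 8, and lower them.

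The mature microRNAs of the cluster, on chromosome 14, are shown first because the genotypes change their supply. They are written 5′ to 3′ from RefSeq (GRCm38.p6), with the seed in capitals, and fall into 4 seed families, of which miR-17 and miR-20a share 1 and miR-19a and miR-19b another.
mmu-miR-17-5p: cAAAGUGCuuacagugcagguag
mmu-miR-20a-5p: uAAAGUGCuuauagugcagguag
mmu-miR-18a-5p: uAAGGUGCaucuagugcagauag
mmu-miR-19a-3p: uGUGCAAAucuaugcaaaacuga
mmu-miR-19b-3p: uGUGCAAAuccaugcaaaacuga
mmu-miR-92a-3p: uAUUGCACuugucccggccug

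Heptamers complementary to these seeds (GCACTTT for miR-17, GCACCTT for miR-18, TTTGCAC for miR-19 and GTGCAAT for miR-92) were looked for on the sense strand in the 3′ untranslated region, taken for each gene from the transcript where it is longest (GENCODE vM21, GRCm38). S1pr1 had 5 matches in 1362 bases, with at least 1 for every family. Foxo1 had 3 matches in 6240 bases, Foxp1 2 in 4752, Satb1 2 in 3711, Il7r 1 in 2569 and Klf2 1 in 737. Ccr7 (762 bases), Tcf7 (1512) and Lef1 (1287) had none. Among 12508 tested genes with such a region, of median length 1148 bases, 32.9% had a match to at least 1 family, against 6 of the 9 genes here. By family the shares were 14.1% for miR-17, 9.19% for miR-18, 12.8% for miR-19 and 7.45% for miR-92, against 3, 3, 4 and 3 of the 9. A match describes the letters and is no measured binding site. The sites below, with the match in capitals and the strand of the transcript shown, were chosen to show the receptor genes S1pr1 and Il7r and the factors that act on them, Klf2 and Foxo1, and the miR-18 and miR-17 sites of S1pr1 lie in overlapping windows.
S1pr1, miR-19 site, chr3:115711509-115711537: ggagctttgatTTTGCACtgagccaaagg
S1pr1, miR-18 site, chr3:115710884-115710912: taacccctacaGCACCTTtggcactttta
S1pr1, miR-17 site, chr3:115710875-115710903: cagcacctttgGCACTTTtattgatgatt
Klf2, miR-92 site, chr8:72321122-72321150: ttttcaaaatgGTGCAATaattgacttat
Il7r, miR-19 site, chr15:9507677-9507705: gctcagaagcaTTTGCACaaagcaggaag
Foxo1, miR-17 site, chr3:52347140-52347168: caacagcggcaGCACTTTcctgtgcagga
Klf2 and Foxo1 lie on the plus strand, S1pr1 and Il7r on the minus strand. The other Foxo1 matches, to miR-92 and miR-19, start 3263 and 6170 bases into the region and lie past the end that RefSeq gives the gene.

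**Figure D1:**
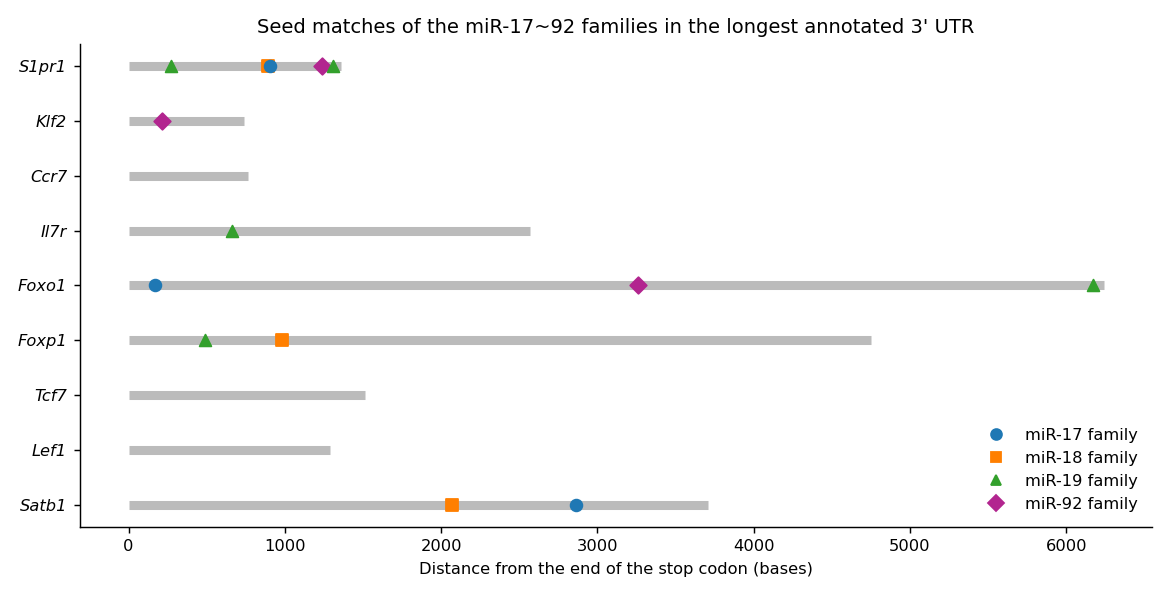
Grey bars show the 3′ untranslated regions searched, in bases from the end of the stop codon, and symbols the seed matches of the 4 families. S1pr1 carries 5 matches in 1362 bases, while Ccr7, Tcf7 and Lef1 carry none.

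Libraries held 19427291 to 24982429 counts in naive and 22267060 to 28020721 in stimulated cells. Levels below are CPM, that is counts scaled to a common library size, as mean ± SD over the libraries of a group. The host gene Mir17hg stood at 51.6 ± 7.25 in naive wt, 54.4 ± 7.88 in naive T1792Δ/Δ, 96.6 ± 10.1 in naive T1792tg/tg and 97.3 ± 12.2 in naive rescue cells, and at 172 ± 11.8 in stimulated T1792Δ/Δ against 20.7 ± 2.44 in stimulated wt cells. The small Mir17 row, counted from polyA RNA, was at 6.55 ± 0.900 in naive T1792tg/tg, 6.88 ± 1.84 in naive rescue, 0.334 ± 0.0969 in naive wt and without a read in any stimulated T1792Δ/Δ library. Both rows were lower in stimulated transgenic cells. At 24 h Mir17 was at 0.624 ± 0.231 in T1792tg/tg and 0.571 ± 0.0399 in rescue against 0.131 ± 0.0188 in wt. Mir17hg was then at 34.7 ± 4.2 in T1792tg/tg and 30.2 ± 4.2 in rescue. Cd28 had 737 ± 135 CPM in the naive libraries labelled CD28-/- against 825 ± 86.8 in wt. A count over the whole gene does not check that label, for or against, and these libraries are called labelled CD28-/- throughout. Markers of CD4 T cells (8 genes, Cd3e and Cd4 among them) summed to 4710 to 6090 CPM in naive and 2770 to 4300 in stimulated libraries. B cell markers (8 of 10 in the table) summed to at most 518 in naive and 84.1 in stimulated libraries, and myeloid markers to at most 342 and 46.6. A list of 10 genes of dissociation and stress such as Fos summed to 3500 to 12200 in naive and 407 to 630 in stimulated libraries. RNA of bulk cells cannot tell fewer expressing cells from less RNA per cell. CPM gives a share of each library, so a change in the total RNA of a cell, as between naive and stimulated cells, is not seen in it.

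Per kilobase of counted gene length, the order of levels in naive wt cells was Ccr7 (764.7 CPM per kilobase), Tcf7 (704), Klf2 (485), S1pr1 (417), Satb1 (150.5), Il7r (112), Foxo1 (104), Lef1 (69.2) and Foxp1 (40.5). After 24 h it was Ccr7 (237), Tcf7 (112), Satb1 (53.7), Foxp1 (31.9), Lef1 (20.4), Foxo1 (14.7), Klf2 (3.89), Il7r (1.83) and S1pr1 (1.67). S1pr1, Klf2 and Il7r thus took the last 3 places after stimulation, and Foxp1 moved up from the last place.

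**Figure D2:**
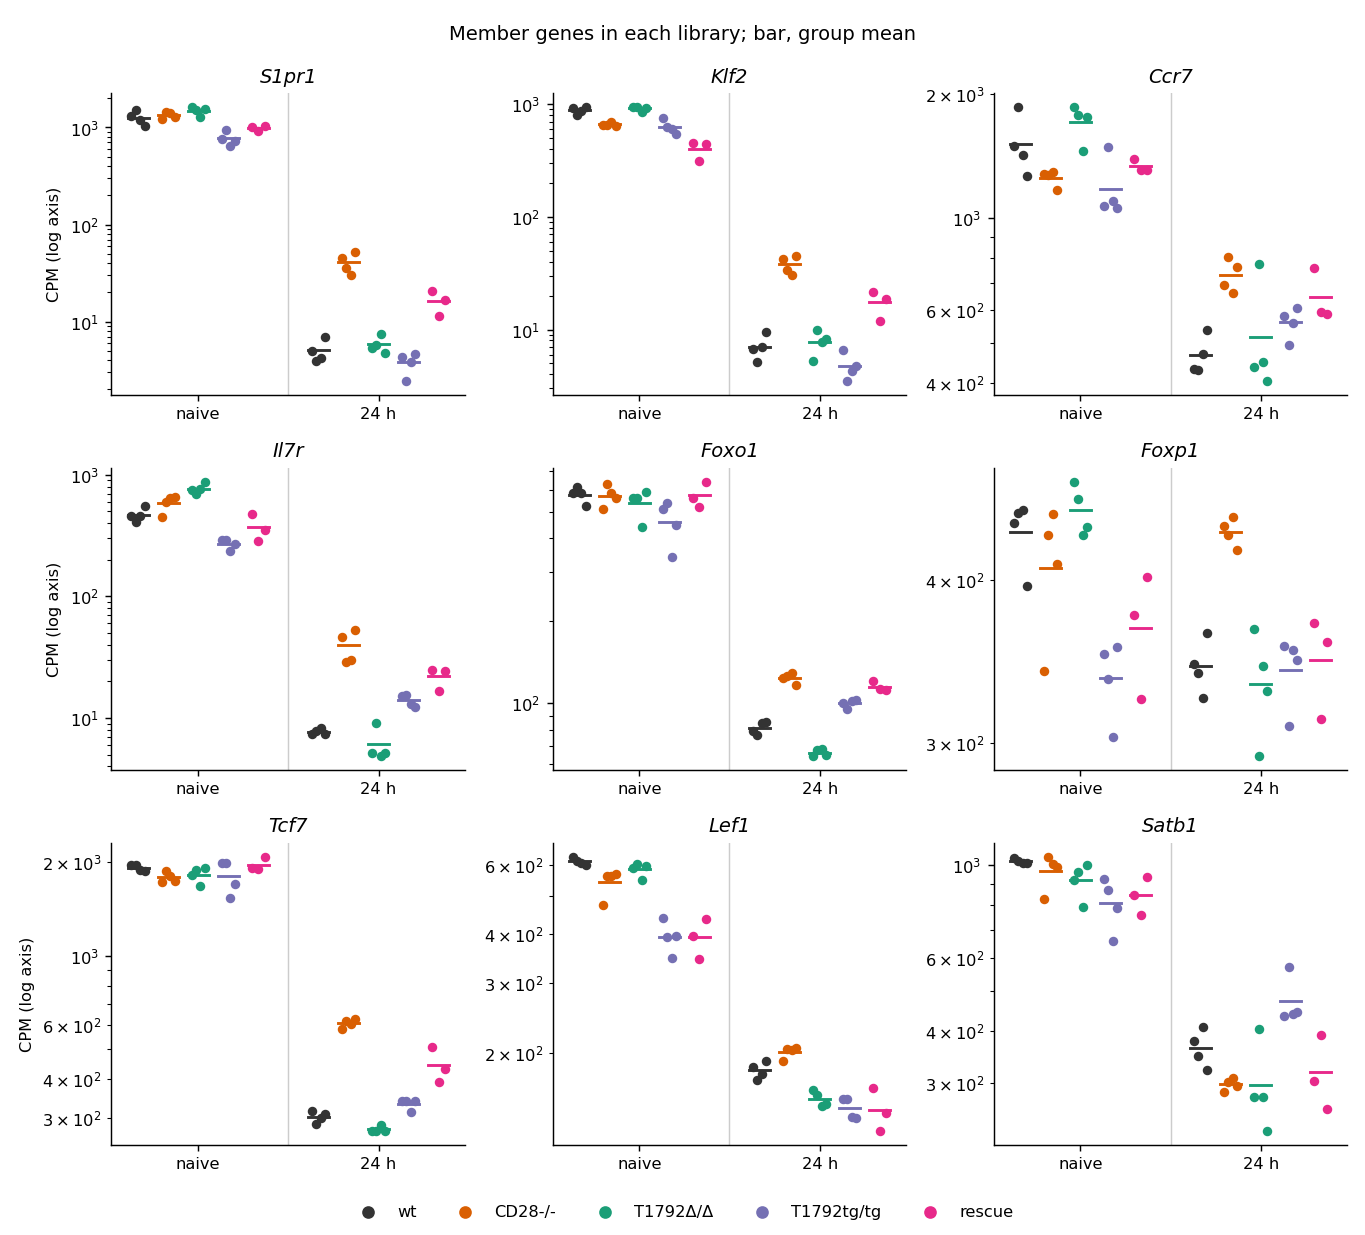
Each point is 1 library, in CPM on a log axis that differs between panels, bars are group means, and colours are the genotypes, naive on the left and 24 h on the right. The drop at 24 h spans orders of magnitude for S1pr1, Klf2 and Il7r, and the stimulated libraries labelled CD28-/- lie above those of wt for 7 of the 9 genes.

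All 9 genes were lower in stimulated than in naive wt cells. The comparison of 24 h with naive wt libraries is read against a background in which 85.2% of the 13650 tested genes changed and 43.9% fell. No group was cultured without the antibodies or without interleukin-2. Activation, interleukin-2 and 24 h of culture therefore cannot be told apart, and stimulation here and below means all of them together. The median log2 fold change of the 9 was -2.66, against -0.063 over all tested genes. The libraries of the 2 states did not overlap for any of the 9 genes, as for 80.5% of all tested genes.

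The egress receptor gene S1pr1 stood at 1303, 1514, 1188 and 1042 CPM in the 4 naive wt libraries and at 4.99, 3.97, 4.25 and 7.01 in the 4 stimulated ones, which left 0.401% of the naive mean. The log2 fold change was -7.965 ± 0.227 (edgeR adjusted p = 1.3e-26), with the error given as SE here and below. Klf2, its transcriptional activator, went from 925, 794, 869 and 935 CPM to 6.68, 5.14, 6.94 and 9.5, or 0.802% of the naive mean, a log2 fold change of -6.96 ± 0.212 (edgeR adjusted p = 7.7e-26). The interleukin-7 receptor gene Il7r went from 457, 408, 462 and 552 CPM to 7.39, 7.79, 8.19 and 7.33, or 1.63%, with -5.93 ± 0.215 (edgeR adjusted p = 1e-23). These 3 genes fell far more than the others, each to under 10 CPM in every stimulated wt library. Ccr7, the lymph node entry receptor, kept more of its RNA, with 1494, 1855, 1424 and 1268 CPM in naive and 433, 430.4, 471 and 538 in stimulated libraries, or 31% of the naive mean and -1.69 ± 0.145 (edgeR adjusted p = 5.2e-13) on the log2 scale.

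Among the transcription factors, Foxo1 and Tcf7 fell most after Klf2. Foxo1 went from 576 ± 38 to 81.5 ± 4.28 CPM, -2.82 ± 0.101 (edgeR adjusted p = 6.6e-24), and Tcf7 from 1917 ± 46.1 to 304 ± 12.9, -2.66 ± 0.075 (edgeR adjusted p = 9.1e-27). Lef1, the partner of Tcf7, fell from 612 ± 12.1 to 180.4 ± 8.47 CPM, -1.76 ± 0.076 (edgeR adjusted p = 1.9e-21), and the chromatin organiser Satb1 from 1021 ± 13.4 to 364 ± 37.6, -1.49 ± 0.13 (edgeR adjusted p = 8.9e-13). Foxp1 fell least, from 436 ± 26.7 to 344 ± 16.3 CPM, -0.34 ± 0.079 (edgeR adjusted p = 0.00017), so that 78.8% of its naive mean was left. This is its share of the library, and its amount per cell was not measured. Stress genes, whose summed level was 4230 to 12200 CPM in naive and 536 to 581 in stimulated wt libraries, moved with the same contrast, and their part in these results was not tested.

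Because the 9 genes fell together, their promoters were read for motifs of the factors among them. The RefSeq promoter table (250 bases before to 50 after each start, GRCm38.p6) held 7 of the 9 genes. S1pr1 and Ccr7 were not in it, so their promoters were not searched. Lef1, Foxp1, Tcf7 and Satb1 each had multiple windows, so the shares per promoter below are not shares per gene. GTAAACA, the core bound by FOXO and FOXP factors, was present on either strand in 3.65% of 32851 promoters, CACACCC, a KLF motif, in 7.95% and ATCAAAG, a TCF and LEF motif, in 3.73%. A start of Tcf7 held GTAAACA and, on the other strand, CACACCC (read as GGGTGTG), both in capitals below, and a start of Satb1 held CACACCC at 51 bases before it. No other match was found among the 7 genes, which says only that these letters are not in these windows. The Tcf7 window, on the minus strand of chromosome 11, is shown because it holds both motifs.
Tcf7 promoter, chr11:52282546-52282845: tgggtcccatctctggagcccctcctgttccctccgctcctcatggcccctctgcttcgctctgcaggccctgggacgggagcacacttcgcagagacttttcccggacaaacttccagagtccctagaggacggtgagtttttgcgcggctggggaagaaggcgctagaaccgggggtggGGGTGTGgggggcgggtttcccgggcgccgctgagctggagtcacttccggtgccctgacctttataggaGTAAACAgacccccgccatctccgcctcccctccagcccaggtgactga

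In the other genotypes the same genes fell, by amounts that differed. Stimulation lowered all 9 genes in T1792Δ/Δ cells (background 85.1% called, 43.7% lower), and 8 of 9 in cells labelled CD28-/- (80.9% called, 41.2% lower), in T1792tg/tg cells (85.1% called, 44.1% lower) and in rescue cells (79.7% called, 40.8% lower). Foxp1 was the exception in these 3, with log2 fold changes of 0.091 ± 0.079 (edgeR adjusted p = 0.28), 0.022 ± 0.079 (edgeR adjusted p = 0.8) and -0.081 ± 0.091 (edgeR adjusted p = 0.41). For cells labelled CD28-/- its value passed the threshold as an increase when libraries were scaled by total counts, at 0.23 ± 0.078 (edgeR adjusted p = 0.0073), a scaling that also moved the median of all genes by 0.135 in this comparison. For rescue it passed as a decrease, at -0.19 ± 0.085 (edgeR adjusted p = 0.037), when genes under a mean of 5 CPM were left out. The fall of S1pr1 was -7.99 ± 0.226 on the log2 scale in T1792Δ/Δ, -7.65 ± 0.226 in T1792tg/tg, -5.92 ± 0.235 in rescue and -5.045 ± 0.194 in cells labelled CD28-/-. Klf2 too fell least in rescue and in cells labelled CD28-/-, with -7.05 ± 0.215 in T1792tg/tg, -6.88 ± 0.21 in T1792Δ/Δ, -4.52 ± 0.215 in rescue and -4.12 ± 0.181 in cells labelled CD28-/-. Il7r changed by -6.98 ± 0.225 in T1792Δ/Δ, its widest fall, by -4.28 ± 0.197 in T1792tg/tg, -4.07 ± 0.223 in rescue and -3.885 ± 0.19 in cells labelled CD28-/-.

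**Figure D3:**
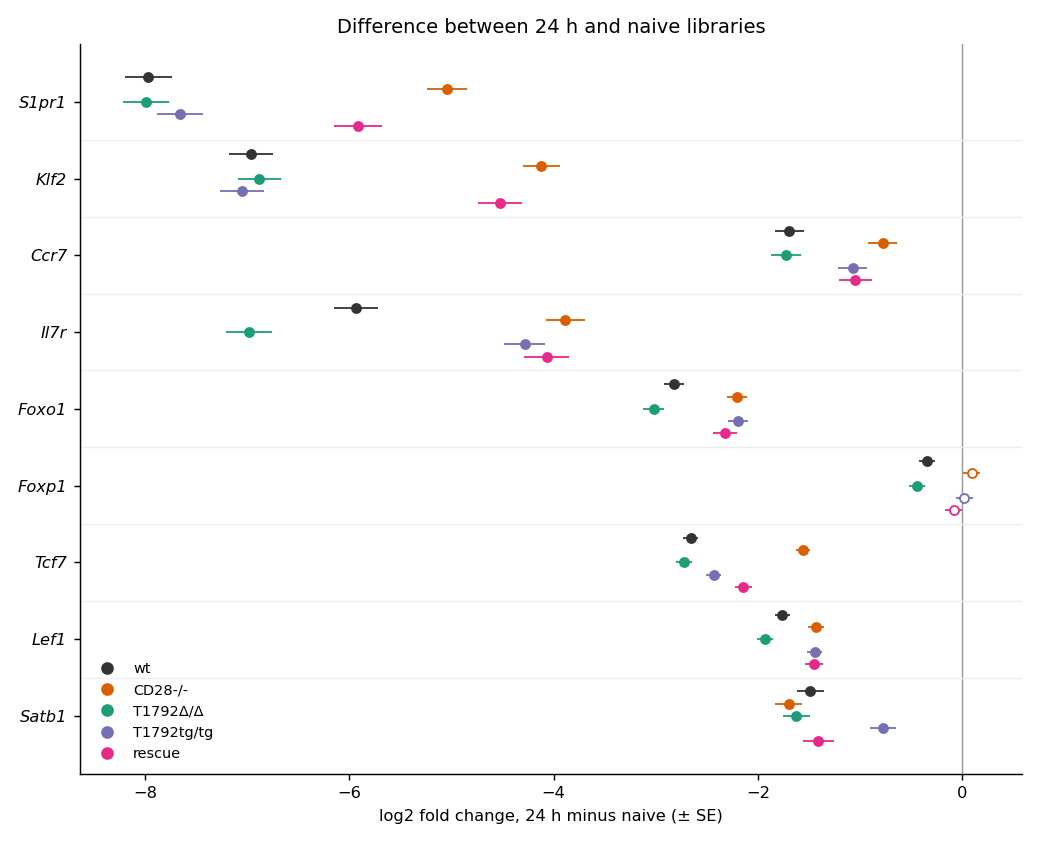
Points are log2 fold changes of 24 h against naive libraries with SE, 1 row per gene and 1 colour per genotype, and open points did not pass an edgeR adjusted p of 0.05. S1pr1 and Klf2 fell least in cells labelled CD28-/- and in rescue, and the Foxp1 points lie between -0.44 and 0.091.

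The response to stimulation was smaller in cells labelled CD28-/- than in wt for 8 of the 9 genes, by the test of the difference between the 2 stimulation effects (background 43.3% of genes called, 20.8% in this direction). The difference in log2 fold change was 2.92 ± 0.252 (edgeR adjusted p = 3.9e-11) for S1pr1, 2.84 ± 0.242 (edgeR adjusted p = 3e-11) for Klf2 and 2.05 ± 0.255 (edgeR adjusted p = 6.4e-08) for Il7r. Tcf7 differed by 1.10 ± 0.1 (edgeR adjusted p = 1e-10) and Ccr7 by 0.91 ± 0.2 (edgeR adjusted p = 0.00035). Foxo1, Foxp1 and Lef1 differed by 0.62 ± 0.133, 0.435 ± 0.111 and 0.33 ± 0.105, with edgeR adjusted p-values of 0.00029, 0.0017 and 0.01. Satb1 did not pass, at -0.21 ± 0.18 (edgeR adjusted p = 0.37). The count of 8 was the same without any 1 of the 16 libraries. By Xist and Y-linked genes, all libraries of this genotype and 3 of 4 wt libraries in each state came from female mice, and the count was also 8 with a term for sex in the fit.

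At 24 h, 7 of the 9 genes were higher in cells labelled CD28-/- than in wt (background 51.5% of genes called, 23.7% higher), with a median log2 difference of 0.64 over the 9 against -0.026 over all tested genes. The groups did not overlap for 8 of 9, with Satb1 among them on the lower side, as for 54.1% of tested genes. S1pr1 had 45.2, 36, 29.9 and 51.9 CPM in the 4 libraries labelled CD28-/-, each above every stimulated wt library given above, and was 8.07-fold higher, at 3.01 ± 0.195 (edgeR adjusted p = 1e-14). Klf2 had 42.6, 33.8, 30.3 and 45.2 CPM and was 5.38-fold higher, at 2.43 ± 0.184 (edgeR adjusted p = 4.5e-13), and Il7r had 46.5, 28.9, 29.9 and 53.4 CPM and was 5.17-fold higher, at 2.37 ± 0.194 (edgeR adjusted p = 2.9e-12). For these 3 genes the stimulated level remained far under the naive one, at 3.03%, 5.76% and 6.76% of the naive mean of the same genotype.

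Tcf7 had 583, 615, 601 and 626 CPM in stimulated libraries labelled CD28-/- against 317, 287, 301 and 309 in wt, a log2 difference of 0.997 ± 0.071 (edgeR adjusted p = 1.1e-13) with no overlap. Ccr7 had 691, 805, 659 and 763 against 433, 430.4, 471 and 538 CPM, 0.64 ± 0.142 (edgeR adjusted p = 0.00028). Foxo1, at 124 ± 5.22 against 81.5 ± 4.28 CPM, and Foxp1, at 436 ± 11 against 344 ± 16.3, were higher by 0.605 ± 0.095 and 0.34 ± 0.079 (edgeR adjusted p = 2.2e-06 and 0.00043). Lef1 and Satb1 did not pass, at 0.15 ± 0.074 (edgeR adjusted p = 0.083) and -0.29 ± 0.128 (edgeR adjusted p = 0.058). Satb1 is the gene of the 9 with a negative value here, and it passed as lower without the fourth stimulated wt library, at -0.34 (edgeR adjusted p = 0.037). It also passed as lower with the compared groups alone, at -0.25 (edgeR adjusted p = 0.0043), with DESeq2 (adjusted p = 0.042) and with the replicate block (edgeR adjusted p = 0.044). Lef1 passed as higher with total counts (edgeR adjusted p = 0.01), with the filter at 5 CPM (0.039) and with the compared groups alone (0.0024). Beside these differences, effector and memory markers (11 genes, of which Itgb1 and Cxcr3 are also on the homing list) summed to 508 to 544 CPM in cells labelled CD28-/- and 765 to 840 in wt. Of these 11 genes 2 were higher and 3 lower, with a median log2 difference of 0.183, so the sum does not describe the list gene by gene. Regulatory T cell markers (9 genes) summed to 987 to 1050 and 1400 to 1450 (3 higher, 6 lower). CD4 T cell markers summed to 3690 to 4300 and 3000 to 3560 (6 of 8 higher, 1 lower). NK and CD8 markers summed to 51.2 to 57.1 CPM against 75.8 to 132 in wt (2 of 10 higher, 6 lower). Their part in the result was not tested.

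The rescue comparison asks whether the miR-17~92 transgene brings cells labelled CD28-/- nearer to wt. At 24 h, 6 of the 9 genes were lower in rescue cells than in cells labelled CD28-/- (background 18.4% of genes called, 8.86% lower), and none was higher. The median of the 9 was -0.45 on the log2 scale against 0.010 over all tested genes. The groups did not overlap for 6 of 9, as for 35.5% of tested genes. S1pr1 had 20.8, 11.5 and 16.5 CPM in the 3 rescue libraries, below all 4 libraries labelled CD28-/-, a log2 difference of -1.32 ± 0.192 (edgeR adjusted p = 4.5e-06). Klf2, with 21.5, 12 and 18.7 CPM, differed by -1.13 ± 0.187 (edgeR adjusted p = 3.5e-05), and Il7r, with 24.9, 16.6 and 24.5 CPM, by -0.85 ± 0.195 (edgeR adjusted p = 0.0018). Tcf7 had 508, 391 and 433 CPM, -0.45 ± 0.077 (edgeR adjusted p = 5.4e-05). Lef1, at 144 ± 18.2 against 201 ± 7.24 CPM, differed by -0.48 ± 0.081 (edgeR adjusted p = 4.2e-05), and Foxp1, at 348 ± 30.6 against 436 ± 11, by -0.33 ± 0.086 (edgeR adjusted p = 0.0061). Lef1 did not come nearer to wt by this, because its rescue mean lay below the 180.4 CPM of stimulated wt and farther from it. Without the second stimulated rescue library the value of Foxp1 was -0.255 (edgeR adjusted p = 0.089), and 1300 of all genes were called in place of 2510, and 1595 without the third.

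The entry receptor and the upstream factor did not pass the test against cells labelled CD28-/-: Ccr7 differed by -0.17 ± 0.153 (edgeR adjusted p = 0.49), Foxo1 by -0.11 ± 0.102 (edgeR adjusted p = 0.51) and Satb1 by 0.095 ± 0.138 (edgeR adjusted p = 0.71), and the groups overlapped for all 3. A p above the threshold does not show that these levels were equal. Effector and memory markers summed to 706 to 782 CPM in rescue libraries and 508 to 544 in libraries labelled CD28-/-, and NK and CD8 markers to 135 to 185 and 51.2 to 57.1. Regulatory T cell markers summed to 1390 to 1410 CPM against 987 to 1050 in cells labelled CD28-/-. Most of that sum in rescue was Il2ra, at a mean of 913 CPM against 546. Foxp3 went the other way, at 3.74 CPM in rescue against 5.97. The part of these marker lists in the result was not tested.

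Against wt, stimulated rescue cells had 6 genes higher and 1 lower (background 35.1% called, 17.4% higher and 17.7% lower). S1pr1 was 3.22-fold higher, at 1.69 ± 0.205 (edgeR adjusted p = 6.9e-08), Il7r 2.87-fold, at 1.52 ± 0.205 (edgeR adjusted p = 5e-07), and Klf2 2.47-fold, at 1.30 ± 0.195 (edgeR adjusted p = 2.9e-06). For these 3 genes every rescue library lay between the stimulated wt libraries and those labelled CD28-/-. Tcf7 lay between them too, at 0.55 ± 0.076 (edgeR adjusted p = 7.1e-07) against wt. Foxo1 and Ccr7 were higher than in wt by 0.49 ± 0.102 and 0.47 ± 0.152 (edgeR adjusted p = 0.00028 and 0.015), the latter at 0.33 (edgeR adjusted p = 0.15) without the first stimulated rescue library. Lef1 was lower than in wt, at -0.33 ± 0.081 (edgeR adjusted p = 0.0017), and Foxp1 and Satb1 did not pass, at 0.017 ± 0.085 and -0.19 ± 0.138 (edgeR adjusted p = 0.91 and 0.29). By the test of the difference between stimulation effects, 2 of 9 genes fell further in rescue than in cells labelled CD28-/- (background 12.8% called, 5.84% in this direction). These were Tcf7, by -0.59 ± 0.107 (edgeR adjusted p = 0.00036), and S1pr1, by -0.87 ± 0.256 (edgeR adjusted p = 0.022). Of the other genes lower at 24 h, Klf2, Il7r, Foxp1 and Lef1 did not pass. They stood at -0.41 ± 0.25, -0.18 ± 0.264, -0.17 ± 0.12 and -0.022 ± 0.113 (edgeR adjusted p = 0.31, 0.72, 0.38 and 0.94). Klf2, Il7r and Lef1 were already lower in naive rescue than in naive cells labelled CD28-/-, at -0.72, -0.67 and -0.46. The S1pr1 value was -0.73 (edgeR adjusted p = 0.063) without the fourth stimulated library labelled CD28-/- and -0.68 (edgeR adjusted p = 0.11) without the second stimulated rescue library. The number of all genes called, 1747, was 1000 without the latter and 1144 without the third stimulated rescue library. NK and CD8 markers summed to 135 to 185 CPM against 75.8 to 132 in wt (4 of 10 higher, 2 lower), and their part was not tested.

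Before stimulation, the transgene went with lower levels of most of these genes. In naive T1792tg/tg cells 6 of 9 were lower than in wt and none was higher (background 23.1% of genes called, 12.6% lower), and the median was -0.37 on the log2 scale against 0.009 over all tested genes. The groups did not overlap for 6 of 9, as for 20% of tested genes. Among all called genes the share that was higher was 45.6%, and 66.1% when libraries were scaled by total counts. Lef1 had 439, 393, 348 and 396 CPM in T1792tg/tg against 627, 614, 607 and 599 in wt, with no overlap, a log2 difference of -0.63 ± 0.074 (edgeR adjusted p = 1.2e-07). Il7r had 292, 289.7, 237 and 269.6 against 457, 408, 462 and 552 CPM, -0.79 ± 0.169 (edgeR adjusted p = 0.00082). S1pr1 had 752, 951, 651 and 726 against 1303, 1514, 1188 and 1042, -0.71 ± 0.163 (edgeR adjusted p = 0.0016), and the highest T1792tg/tg library was still below the lowest of wt. Foxp1, at 336 ± 23.8 against 436 ± 26.7 CPM, differed by -0.37 ± 0.079 (edgeR adjusted p = 0.0007).

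Klf2 and Foxo1 passed by less. Klf2 had 748, 629.9, 602 and 544 CPM in naive T1792tg/tg against 925, 794, 869 and 935 in wt, -0.48 ± 0.158 (edgeR adjusted p = 0.025), and its adjusted p was 0.056 to 0.09 without the third or the fourth T1792tg/tg or the first or the fourth wt library and 0.054 with total counts. Foxo1 differed by -0.33 ± 0.094 (edgeR adjusted p = 0.0097), its groups overlapped, and it was at -0.21 (edgeR adjusted p = 0.064) without the third T1792tg/tg library and at -0.32 (edgeR adjusted p = 0.11) in a fit of the 2 compared groups alone. Ccr7 and Satb1 did not pass, at -0.36 ± 0.141 (edgeR adjusted p = 0.063) and -0.335 ± 0.128 (edgeR adjusted p = 0.054). Ccr7 passed without the second T1792tg/tg library, at -0.49 (edgeR adjusted p = 0.016), or without the fourth wt library, at -0.43 (edgeR adjusted p = 0.034), and Satb1 without the first T1792tg/tg library, at -0.40 (edgeR adjusted p = 0.032). Tcf7 did not pass, at -0.088 ± 0.07 (edgeR adjusted p = 0.4). Other marker lists moved in this comparison too. Effector and memory markers summed to 611 to 740 CPM against 572 to 627 in wt (7 of 11 higher, 1 lower), and NK and CD8 markers to 144 to 235 CPM against 127 to 136 in wt (5 of 10 higher, 0 lower). Regulatory T cell markers summed to 346 to 478 CPM against 315 to 355 in wt (3 of 9 higher, 1 lower) and stress genes to 6020 to 9910 CPM against 4230 to 12200 in wt (1 of 10 higher, 1 lower). Of the libraries, 1 of 4 T1792tg/tg and 3 of 4 wt libraries came from female mice. With a term for sex in the fit, the 6 genes still passed, with Ccr7 in addition. The part of the marker lists was not tested.

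With the allele labelled CD28-/- in the background, the same transgene went with lower Klf2, Il7r and Lef1. These were the 3 of 9 genes that passed between naive rescue cells and naive cells labelled CD28-/- (background 16.8% called, 8.92% lower), all lower, at -0.72 ± 0.174 (edgeR adjusted p = 0.0036), -0.67 ± 0.184 (edgeR adjusted p = 0.01) and -0.46 ± 0.081 (edgeR adjusted p = 0.00012). Klf2 had 449, 314 and 438 CPM in rescue against 647, 654, 699 and 639.7 in cells labelled CD28-/-, without overlap. Il7r had 474, 285 and 349 against 452, 599.5, 644 and 651 CPM, with overlap between the first rescue and the first library labelled CD28-/-, and its value was -0.51 (edgeR adjusted p = 0.096) without the second rescue library. Lef1 had 396, 346 and 437 against 473, 562, 561 and 568 CPM. S1pr1, at 984 ± 60.7 against 1347 ± 108 CPM, did not pass, at -0.45 ± 0.177 (edgeR adjusted p = 0.075), although the groups did not overlap, and passed in a fit of the 2 groups alone, at -0.45 (edgeR adjusted p = 0.019). Il7r missed in that fit (edgeR adjusted p = 0.052). Foxp1 did not pass, at -0.15 ± 0.085 (edgeR adjusted p = 0.23), and passed without the first library labelled CD28-/-, at -0.23 (edgeR adjusted p = 0.04). Foxo1, Ccr7, Tcf7 and Satb1 lay between -0.19 and 0.14. Effector and memory markers summed to 726 to 835 CPM in naive rescue and 648 to 714 in naive libraries labelled CD28-/- (1 of 11 higher, 1 lower). NK and CD8 markers summed to 168 to 186 CPM against 131 to 170 in cells labelled CD28-/- (3 of 10 higher, 0 lower). The part of these markers was not tested. Whether the transgene acts differently with and without the CD28-/- allele was not tested.

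Against naive wt, rescue had Klf2, Foxp1 and Lef1 lower (background 26.1% called, 13.6% lower), and Klf2 was at its lowest mean of the 5 naive genotypes, 401 ± 74.8 against 881 ± 64.9 CPM in wt, at -1.14 ± 0.176 (edgeR adjusted p = 1.1e-05). Lef1 differed by -0.64 ± 0.081 (edgeR adjusted p = 4.2e-07) and Foxp1 by -0.25 ± 0.085 (edgeR adjusted p = 0.031). Foxp1 lost its call without 1 of the first 2 rescue or 1 of the first 3 wt libraries, with values of -0.26 to -0.16 and edgeR adjusted p-values of 0.054 to 0.25. It also lost it with total counts (edgeR adjusted p = 0.083) and with the compared groups alone (edgeR adjusted p = 0.12), and its groups overlapped. Il7r, at -0.35 ± 0.182 (edgeR adjusted p = 0.16), passed without the first rescue library, at -0.57 (edgeR adjusted p = 0.042). The number of all genes called was 3566, and 2105 without the second rescue library. All rescue libraries were from female mice. Stress genes summed to 3500 to 4520 CPM against 4230 to 12200 in wt (0 of 10 higher, 7 lower), regulatory T cell markers to 200 to 233 CPM against 315 to 355 in wt (0 of 9 higher, 5 lower), effector and memory markers to 726 to 835 CPM against 572 to 627 in wt (3 of 11 higher, 1 lower) and NK and CD8 markers to 168 to 186 CPM against 127 to 136 in wt (3 of 10 higher, 2 lower). Their part in the result was not tested.

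Between naive cells labelled CD28-/- and wt, 0 of the 9 genes passed the edgeR test, with Klf2 and Lef1 under an unadjusted p of 0.05 (background 14.8% of genes called). Klf2 had 660.1 ± 26.5 against 881 ± 64.9 CPM, -0.42 ± 0.158 (edgeR adjusted p = 0.07), and the groups did not overlap for Klf2 and Lef1, as for 15.5% of tested genes. Klf2 passed in a fit of the 2 groups alone (edgeR adjusted p = 0.013). DESeq2 called 0 of the 9 genes too. Regulatory T cell markers summed to 181 to 200 CPM in these libraries and 315 to 355 in naive wt (0 of 9 higher, 7 lower), stress genes to 3620 to 4340 CPM against 4230 to 12200 in wt (0 of 10 higher, 8 lower) and effector and memory markers to 648 to 714 CPM against 572 to 627 in wt (0 of 11 higher, 0 lower). Their part was not tested. The number of all genes called was 2015, and 1170, 1307 and 1331 without the fourth library labelled CD28-/- and without the second and the third wt library.

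Il7r was the 1 gene of the 9 that passed between naive T1792Δ/Δ and naive wt cells. It was higher in naive T1792Δ/Δ than in naive wt cells, with 745, 694, 763 and 872 against 457, 408, 462 and 552 CPM, 1.64-fold or 0.71 ± 0.168 (edgeR adjusted p = 0.0084), and the groups did not overlap (background 5.19% of genes called, 2.76% higher). It held its call without any 1 library and with a term for sex in the fit. The other 8 genes lay between -0.15 and 0.23. By sex, 2 of 4 T1792Δ/Δ and 3 of 4 wt libraries in each state were female. Red cell markers (3 of 5 in the table) summed to 1180 to 5050 CPM in naive T1792Δ/Δ and 310 to 949 in naive wt libraries (1 of 3 higher, 0 lower). Myeloid markers summed to 236 to 342 and 158 to 210 (5 of 10 higher, 0 lower). Effector and memory markers summed to 692 to 728 CPM against 572 to 627 in wt (2 of 11 higher, 0 lower). Their part in the result was not tested. All genes called numbered 708, and 439 without the third T1792Δ/Δ library or 469 without the third wt library.

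After stimulation Il7r was no longer higher in T1792Δ/Δ cells. Its level was 5.17, 9.09, 4.86 and 5.13 CPM against 7.39, 7.79, 8.19 and 7.33 in wt, -0.34 ± 0.208 (edgeR adjusted p = 0.28), and the difference between the 2 stimulation effects was -1.05 ± 0.268 (edgeR adjusted p = 0.016), the single call among the 9 (background 6.1% called, 2.95% in this direction; 833 genes, and 443 or 467 without the first stimulated T1792Δ/Δ or the third naive wt library). Foxo1 and Lef1 were lower at 24 h in T1792Δ/Δ than in wt (background 16.2% called, 8.47% lower). Foxo1 had 64.3, 67.4, 68.2 and 64.9 against 79, 76.8, 84.5 and 85.7 CPM, -0.30 ± 0.095 (edgeR adjusted p = 0.027), and Lef1 160.4, 156, 146 and 148 against 184, 171, 177 and 190.1, -0.24 ± 0.075 (edgeR adjusted p = 0.024). The groups did not overlap for either gene, nor for Tcf7, which did not pass at 276 against 304 CPM (edgeR adjusted p = 0.18). Lack of overlap therefore does not set the called genes apart. The calls of Foxo1 and Lef1 were lost with total counts, and several single libraries decided them. Foxo1 had edgeR adjusted p-values of 0.052 to 0.078 without the first or the fourth T1792Δ/Δ or the third or the fourth wt library, and Lef1 of 0.054 to 0.079 without the third or the fourth T1792Δ/Δ or the first or the fourth wt library. The second stimulated T1792Δ/Δ library stood high for Ccr7, Il7r and Satb1. Without it Satb1 passed as lower, at -0.475 (edgeR adjusted p = 0.0071), while its value with all libraries was -0.29 ± 0.128 (edgeR adjusted p = 0.12). The number of all genes called, 2216, was 1388 without the first T1792Δ/Δ library. Effector and memory markers summed to 571 to 694 CPM against 765 to 840 in wt (2 of 11 higher, 5 lower), regulatory T cell markers to 1150 to 1330 CPM against 1400 to 1450 in wt (0 of 9 higher, 3 lower), stress genes to 407 to 509 CPM against 536 to 581 in wt (0 of 10 higher, 1 lower) and red cell markers to 11.7 to 88.5 CPM against 4.91 to 6.86 in wt (1 of 3 higher, 0 lower). None of these sums overlapped between the groups. In the regulatory T cell list, Il2ra had a mean of 387 CPM against 641 in wt, and Foxp3 9.36 against 9.42. The part of these marker lists in the result was not tested.

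In stimulated T1792tg/tg cells the pattern of the naive state did not hold: Il7r, Foxo1 and Satb1 were higher than in wt and Lef1 was lower (background 12.5% called, 6.1% higher and 6.45% lower). Il7r had 15.2, 15.5, 12.9 and 12.2 CPM against 7.39, 7.79, 8.19 and 7.33 in wt, 1.82-fold higher at 0.86 ± 0.197 (edgeR adjusted p = 0.003), with no overlap. Foxo1 had 100.1, 95.3, 102 and 103 against 79, 76.8, 84.5 and 85.7, 0.295 ± 0.095 (edgeR adjusted p = 0.036), and Satb1 435, 571, 439.8 and 445 against 379, 348, 409 and 322, 0.375 ± 0.128 (edgeR adjusted p = 0.048). Lef1 was lower in both states, at 24 h with 152, 152, 138 and 137 against 184, 171, 177 and 190.1 CPM, -0.32 ± 0.075 (edgeR adjusted p = 0.0039). The calls of Il7r and Lef1 held without any 1 library. Foxo1 lost its call without any 1 of the T1792tg/tg libraries but the second or any of the first 3 wt libraries (edgeR adjusted p = 0.051 to 0.1), and Satb1 without any of the T1792tg/tg libraries but the first or any wt library but the third (0.063 to 0.19). Foxo1 was also lost with no filter (edgeR adjusted p = 0.051), and Satb1 with no filter (0.057) and with total counts (0.052). By sex, 1 of 4 T1792tg/tg and 3 of 4 wt libraries were female. With a term for sex Satb1 lost its call, at 0.38 (edgeR adjusted p = 0.063), and Klf2 gained one, at -0.64 (edgeR adjusted p = 0.043), which left the count at 4. S1pr1 and Klf2, with the most negative values of the 9, did not pass, at -0.40 ± 0.216 (edgeR adjusted p = 0.24) and -0.57 ± 0.202 (edgeR adjusted p = 0.06). Klf2 passed without the first T1792tg/tg library, at -0.76 (edgeR adjusted p = 0.015), or without the second wt library, at -0.69 (edgeR adjusted p = 0.029), and with DESeq2 (adjusted p = 0.021). All genes called numbered 1713, and 1092, 962 and 1092 without the third or the fourth T1792tg/tg or the first wt library. Effector and memory markers summed to 1010 to 1020 CPM in T1792tg/tg and 765 to 840 in wt libraries, and NK and CD8 markers to 174 to 245 and 75.8 to 132. Regulatory T cell markers summed to 1580 to 1670 CPM against 1400 to 1450 in wt. Within that list Il2ra had a mean of 914 CPM against 641 in wt, while Foxp3 was at 6.47 against 9.42. The part of these marker lists in the result was not tested.

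The change of pattern was tested as the difference between the 2 stimulation effects, and 6 of the 9 genes fell less in T1792tg/tg than in wt cells (background 16%, 8.59% in this direction). Il7r led with 1.65 ± 0.26 (edgeR adjusted p = 5.9e-05), followed by Satb1 at 0.71 ± 0.181 (edgeR adjusted p = 0.0067) and Foxo1 at 0.62 ± 0.133 (edgeR adjusted p = 0.0016). Ccr7, Foxp1 and Lef1 passed at 0.62 ± 0.2, 0.365 ± 0.111 and 0.32 ± 0.105 (edgeR adjusted p = 0.031, 0.022 and 0.035). These last 3 did not pass with total counts. Ccr7 lost its call without any 1 of 7 libraries, namely naive T1792tg/tg 1, 3 or 4, naive wt 2, stimulated T1792tg/tg 4 and stimulated wt 1 or 2 (edgeR adjusted p = 0.053 to 0.086). Lef1 lost it without any 1 of naive T1792tg/tg 2, 3 or 4, naive wt 1 or 2, stimulated T1792tg/tg 1 or 2 and stimulated wt 2 or 3 (0.05 to 0.076). S1pr1, Klf2 and Tcf7 did not pass, at 0.31 ± 0.271, -0.085 ± 0.255 and 0.22 ± 0.099 (edgeR adjusted p = 0.47, 0.87 and 0.12). Of the genes called, 53.7% lay in the direction of a weaker fall or stronger rise, and 31.6% with total counts.

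**Figure D4:**
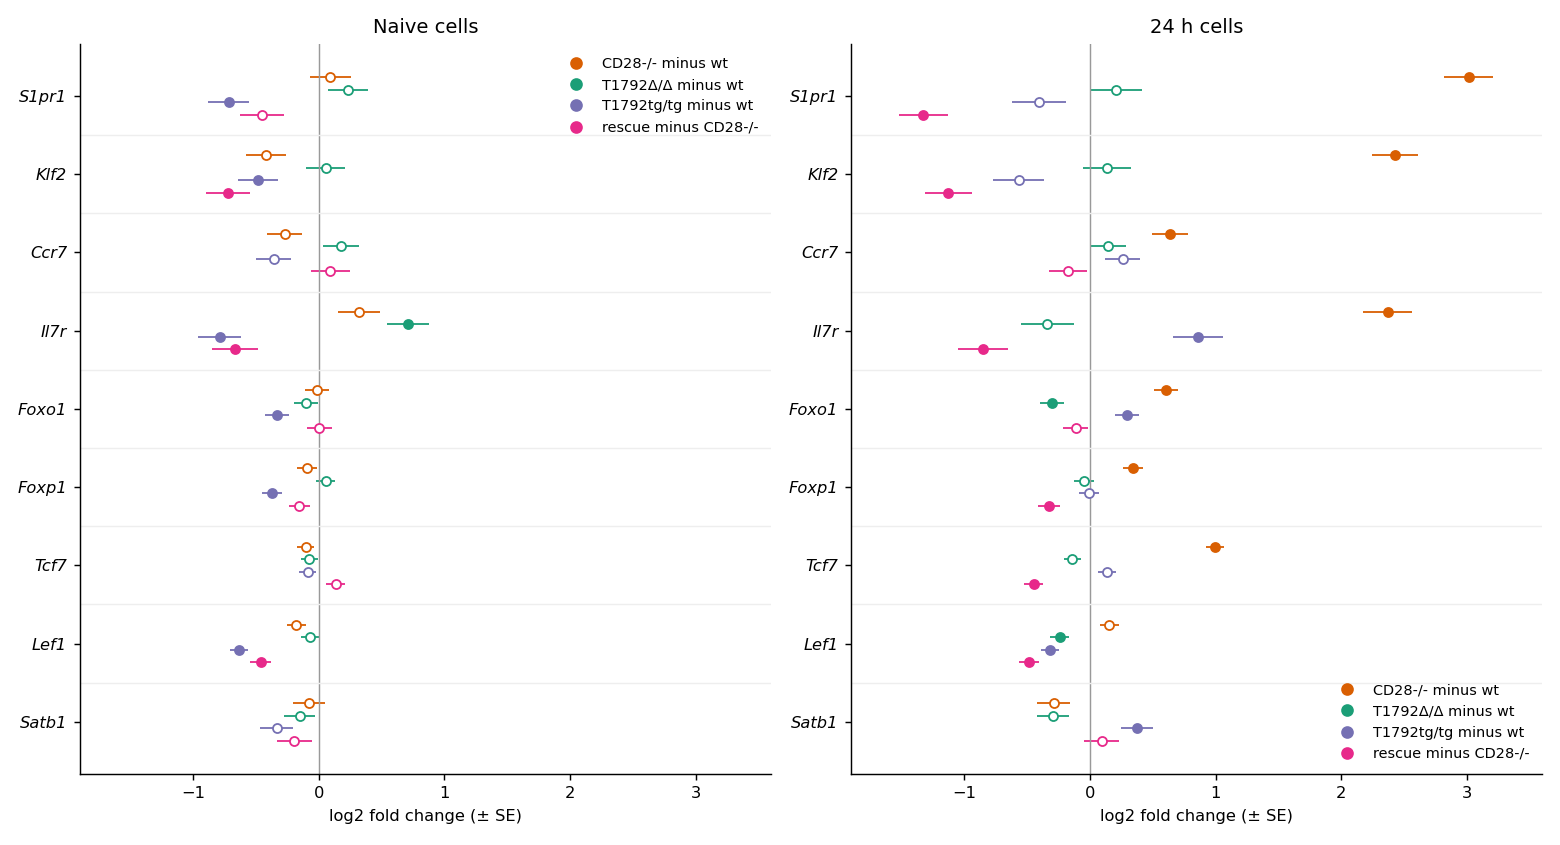
Points are log2 differences between genotypes with SE, in naive cells on the left and at 24 h on the right, 1 row per gene, and open points did not pass an edgeR adjusted p of 0.05. In naive cells the T1792tg/tg points of S1pr1, Il7r and Lef1 lie at -0.71, -0.79 and -0.63, and at 24 h the differences between cells labelled CD28-/- and wt reach 3.01 for S1pr1.

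Across the 5 genotypes, the order of the levels at 24 h was the same for S1pr1 and Klf2. The libraries labelled CD28-/- were highest, rescue followed without overlap, and T1792Δ/Δ, wt and T1792tg/tg came last with overlapping neighbours. For Il7r the order was labelled CD28-/-, rescue, T1792tg/tg and then wt and T1792Δ/Δ, where the last pair overlapped and no other neighbours did. Tcf7 had the order labelled CD28-/-, rescue, T1792tg/tg, wt and T1792Δ/Δ, with overlap between T1792tg/tg and wt, and Foxo1 had that order too, with overlap between the first pair. Satb1 differed from all of these, with T1792tg/tg first at 473 ± 65.4 CPM and above all wt libraries, and the other 4 genotypes overlapping with their neighbours between 297.9 and 364.5. In naive cells T1792Δ/Δ had the highest mean of S1pr1, Klf2, Ccr7, Il7r and Foxp1, and T1792tg/tg the lowest of S1pr1, Ccr7, Il7r, Foxo1, Foxp1 and Satb1, and each overlapped with the next genotype except Il7r in T1792Δ/Δ.

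Companion genes of the same pathways mostly fell too in stimulated wt cells, where 43.9% of all genes fell. Of 16 other homing and egress genes, 12 fell and 3 rose upon stimulation, with a median of -2.405 on the log2 scale against -0.063 over all tested genes. Among the leading genes were the integrin gene Itgb7 at -3.66 ± 0.104, the oxysterol receptor gene Gpr183 at -2.71 ± 0.093 and S1pr4, a relative of S1pr1, at -2.57 ± 0.089 (edgeR adjusted p at most 2.5e-24). In cells labelled CD28-/- at 24 h, 7 of the 16 were higher and 4 lower than in wt (all genes 51.5% called, 23.7% higher), among them S1pr4 at 1.48 ± 0.087 and Itga4 at 1.68 ± 0.144 as higher and Itgb1 at -1.07 ± 0.071 as lower (edgeR adjusted p at most 9.3e-12). Between rescue and cells labelled CD28-/- 3 were higher and 1, S1pr4, lower (all genes 18.4% called), at -0.54 ± 0.091 (edgeR adjusted p = 4.2e-05). Cd69, whose product holds S1PR1 inside the cell, had 836 ± 52.7 CPM in naive and 284 ± 39.6 in stimulated wt libraries.

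Of 18 other factors of naive and early T cells, 16 fell and 2 rose in stimulated wt cells, with a median of -1.745, led by Ets1 at -2.66 ± 0.077 and the RNA-binding protein gene Zfp36l2 at -3.455 ± 0.108 (edgeR adjusted p = 1.9e-26 and 1.8e-25). At 24 h, 12 of the 18 were higher and 4 lower in cells labelled CD28-/- than in wt (all genes 51.5% called, 23.7% higher), with Myb at 2.34 ± 0.136 and Ets1 at 1.13 ± 0.073 (edgeR adjusted p = 6.5e-16 and 1e-14). Between rescue and cells labelled CD28-/-, 7 were lower and 3 higher (all genes 18.4% called, 8.86% lower), with Klf3 at -0.51 ± 0.101 and Runx3, a factor of cytotoxic and Th1 cells, at 0.91 ± 0.127 (edgeR adjusted p = 0.00038 and 2.5e-06).

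Of 14 genes of interleukin-7 receptor signalling, 11 fell and 1 rose in stimulated wt cells, with a median of -1.38, and 8 were higher and 2 lower at 24 h in cells labelled CD28-/- than in wt (all genes 51.5% called). Jak1, the kinase bound to the receptor chain, was at -2.45 ± 0.069 upon stimulation and at 0.76 ± 0.066 in cells labelled CD28-/- (edgeR adjusted p = 8.3e-27 and 9.5e-12). In naive cells the survival gene Bcl2, which interleukin-7 is known to raise, was called against wt in T1792Δ/Δ and in T1792tg/tg. For rescue, which also carries the transgene, Bcl2 is not given here. It was higher in T1792Δ/Δ than in wt, at 0.59 ± 0.08, and lower in T1792tg/tg, at -0.65 ± 0.081 (edgeR adjusted p = 8.7e-06 and 3.5e-07), as was Il7r. In naive cells labelled CD28-/- the means of the genes differed from wt in opposite directions, Bcl2 at 140.5 against 177 CPM and Il7r at 587 against 469.8. Over the list, naive T1792Δ/Δ had 1 gene higher and 1 lower (all genes 5.19% called) and naive T1792tg/tg 1 higher and 4 lower (all genes 23.1% called, 12.6% lower).

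Of 12 Wnt and TCF/LEF cofactors, 10 fell and 2 rose in stimulated wt cells, with a median of -1.37, and 6 were higher and 2 lower at 24 h in cells labelled CD28-/- (all genes 51.5% called, 23.7% higher), with the corepressor gene Tle3 at 0.97 ± 0.086 and Bcl9l, a coactivator of β-catenin, at 1.30 ± 0.123 (edgeR adjusted p = 1.7e-11 and 7.6e-11). Of 12 kinases and brakes upstream of FOXO factors, 10 fell and 2 rose in stimulated wt cells at a median of -1.40, with the PI3K inhibitor gene Pik3ip1 at -5.82 ± 0.149 and the kinase gene Sgk1 at -5.87 ± 0.16 (edgeR adjusted p = 7.2e-28 and 4.3e-27). At 24 h, 8 were higher and 2 lower in cells labelled CD28-/-, against the same share of all genes, with Pik3ip1 at 2.63 ± 0.145, and 0 were higher and 2 lower in rescue against cells labelled CD28-/- (all genes 18.4% called), with Pik3ip1 at -0.845 ± 0.137 (edgeR adjusted p = 1.7e-16 and 2.5e-05).

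The profile of each gene over the 10 groups (log2 of the group mean, centred) was compared with that of 9749 others with a mean of at least 5 CPM, by the root mean square difference, as a description. Klf2 and S1pr1 had the same nearest gene, Hsd11b1, which encodes a glucocorticoid-activating enzyme, at 0.37 and 0.50, and Hsd11b1 itself had 83.2 CPM in naive wt, 0.738 in stimulated wt and 2.81 in stimulated cells labelled CD28-/-. For Il7r the nearest gene was Slfn5 at 0.405, for Foxo1 Zfp652 at 0.13, for Tcf7 Gabbr1 at 0.11, for Lef1 Sqstm1 at 0.11, for Ccr7 Tnrc18 at 0.081 and for Foxp1 Dnajb12 at 0.089. For Satb1 the nearest row had no symbol in the table used, and Ptp4a1 came next at 0.13. Among the 9 genes, Foxo1 and Tcf7 were the closest pair, at 0.18, and S1pr1 and Foxp1 the farthest, at 3.48.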

How the data were processed

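Read counts per gene were analysed for naive and 24 h stimulated CD4 T cells of 5 mouse genotypes, 38 libraries in all. The authors deposited 1 table of raw counts by Entrez Gene number, with a column of gene lengths in bases (another measure than the counts), per the file headers. Libraries were polyA RNA from a stranded kit, read single-end, per the labels' protocols. FastQC 0.11.5, STAR 2.5.2a, R 3.5, edgeR 3.24.3 and mm10 were named in the submitters' processing notes, while the read counter and gene models are not named in them. Of 24028 rows, 23968 matched a symbol in RefSeq, and the other 60 held 0.0749% of counts.

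The deposited counts were fitted in R 4.3.3 with edgeR 4.0.16 (quasi-likelihood test, TMM scaling, filterByExpr, 1 coefficient per group over all libraries), and p-values were adjusted by Benjamini-Hochberg over 13650 tested genes, with 0.05 as the threshold. CPM used TMM-scaled library sizes, and the SE of a log2 fold change was |log2 fold change| over the root of F. The scripts were tested on simulated data. Alternatives were RLE size factors, total counts, no filter, a filter at a mean of 5 CPM, DESeq2 1.42.0, the compared groups alone, a replicate block, a sex term and leaving out single libraries, with 1 more (without the 4 libraries farthest from the rest of their group) chosen after seeing the data.

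The 9 genes and the companion and marker lists were chosen with earlier results of these data known. The 9 genes were tested in every comparison, but the value of a gene that did not pass is not always given. Genes named from a companion list are among its 4 with the smallest p in a comparison. An item is not reported here. Comparisons within a state share their wt or CD28-/- libraries. Naive and stimulated libraries carry the same numbers within a genotype, and no label says whether they came from 1 animal. A number was taken to pair libraries where every pair of a genotype correlated over 0.1 in its deviations from the group means. This held in wt (0.21 to 0.55) and T1792Δ/Δ (0.34 to 0.52) and in no other genotype. The SE and p-values of the main fit do not use this pairing, and a replicate block within genotype was fitted as an alternative. Libraries come from single mice, and no batch is given.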

Additional observations from a re-analysis of the deposited data

Results flagged for a closer look

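In the 72 groups of 4 libraries checked (9 genes in 8 groups), 8 values were flagged as apart from the other 3, and chance flags about 1 group in 20. In naive cells these were Klf2 in the third T1792Δ/Δ library, at 849.2 CPM, Ccr7 in the second T1792tg/tg library, at 1482 CPM, and Lef1 in the first library labelled CD28-/-, at 473.4 CPM. At 24 h, the second T1792Δ/Δ library stood apart for Ccr7, at 777.5 CPM, and for Il7r, at 9.09 CPM. Tcf7 stood apart in the third T1792Δ/Δ library, at 284.7 CPM, and in the third T1792tg/tg library, at 313.8 CPM, and Satb1 in the second T1792tg/tg library, at 570.7 CPM. A flag does not mean a large gap. The other 3 stimulated T1792Δ/Δ libraries had 272.9 to 273.7 CPM of Tcf7, and the other 3 naive ones 929.7 to 940.5 of Klf2.

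The effect of stimulation differed between genotypes by the edgeR test of the difference itself in 17 cases. Between cells labelled CD28-/- and wt the difference in log2 fold change was 2.92 for S1pr1, 2.84 for Klf2, 2.05 for Il7r, 1.10 for Tcf7, 0.91 for Ccr7, 0.62 for Foxo1, 0.435 for Foxp1 and 0.33 for Lef1. Between T1792Δ/Δ and wt it was -1.05 for Il7r. Between T1792tg/tg and wt it was 1.65 for Il7r, 0.71 for Satb1, 0.62 for Foxo1, 0.62 for Ccr7, 0.365 for Foxp1 and 0.32 for Lef1. Between rescue and cells labelled CD28-/- it was -0.87 for S1pr1 and -0.59 for Tcf7.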

How the results depend on the processing

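Of the values of single genes in the 19 comparisons, none changed direction while called. With 1 library left out, 1524 kept their side of the threshold, 51 lost and 9 gained a call, and under the other alternatives 1578 kept it, 16 lost and 26 gained a call. Among the 9 genes, the count called between naive cells labelled CD28-/- and wt was 0, and 1 with the compared groups alone and 2 without the 4 libraries farthest from their groups. At 24 h, T1792Δ/Δ against wt had 2, and 0 with total counts and 4 without those 4 libraries, and T1792tg/tg against wt had 4, and 2 with no filter. The difference of stimulation effects between T1792tg/tg and wt had 6, and 3 with total counts. With 1 library left out, the counts ranged from 0 to 3 for 24 h T1792Δ/Δ, 2 to 4 for 24 h T1792tg/tg, 4 to 7 for naive T1792tg/tg, 4 to 6 for its stimulation effect and 1 to 2 for that of rescue against cells labelled CD28-/-. Over all genes, the compared groups alone gave 956 in place of 2015 calls for naive cells labelled CD28-/- against wt, 1913 in place of 3158 for naive T1792tg/tg, 802 in place of 2288 and 1846 in place of 3566 for naive rescue against cells labelled CD28-/- and wt, 2631 in place of 1713 for 24 h T1792tg/tg and 3851 in place of 2510 for 24 h rescue against cells labelled CD28-/-. Total counts moved the share of higher calls from 46.8% to 69.2% and from 48.0% to 62.6% for naive rescue against cells labelled CD28-/- and wt, from 47.8% to 65.8% for 24 h T1792Δ/Δ, from 49.5% to 59.8% for 24 h rescue against wt, from 51.6% to 64.5% for the stimulation effect of T1792Δ/Δ and from 54.4% to 28.7% for that of rescue. The cause was not tested.

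Naive and stimulated libraries of the same number correlated at -0.09 to 0.55, over 0.1 in 14 of 19 pairs, and 12 of 19 naive libraries matched their own number best; across genotypes the range was -0.57 to 0.37 over 72 pairs. Every pair was over 0.1 in wt and T1792Δ/Δ alone. With a replicate block within genotype, the count called was as without it in the 9 comparisons where it was fitted, 9 for stimulation in wt, 9 in T1792Δ/Δ and 1 for their difference among them, and no call changed. With the replicate block across genotypes, the count called was 7 in place of 6 for naive T1792tg/tg against wt (Satb1 at -0.34), 8 in place of 7 for 24 h cells labelled CD28-/- against wt (Satb1 at -0.29) and 5 in place of 4 for 24 h T1792tg/tg against wt (Klf2 at -0.57), and the same count in the other 16 comparisons. S1pr1, Klf2 and Il7r had under 10 CPM in every stimulated wt library, which limits the precision of their values there.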
